A study of Mus musculus with 20 samples.

Results

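Natural killer T (NKT) cells were compared with conventional T cells on 6 of the series' 20 expression arrays. The members were taken by their labels: 2 arrays of sorted CD3ε(+)NK1.1(+) NKT cells against 2 arrays of CD4(+) T lymphocytes and 2 of CD8(+) T lymphocytes, with both T-cell populations given equal weight. All 10 populations of the series, among them CD3ε(-)NK1.1(+) NK cells, monocytes and B cells, came from mice of the C57BL/6 background, with no treatment, age, sex, tissue or allele named in the labels. Each population had 2 arrays labelled as biological replicates. The labels do not name the animals behind them, nor whether cells of several animals were pooled, so p-values measure only the spread between these samples. The gate was set on 2 surface proteins and not on the CD1d-restricted receptor, and the labels do not say how the CD4(+) and CD8(+) gates treated NK1.1(+) cells. RNA equivalent to 3000 cells was amplified in 2 cycles and read on a mouse 430 2.0 array, whose deposited linear intensities are scaled to a common trimmed mean of 100.

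NKT cells are T lymphocytes that carry receptors otherwise typical of NK cells. Many recognise lipids presented by CD1d and release cytokines quickly, but a gate on CD3ε and NK1.1 also admits other NK1.1-bearing T cells. NK receptors of the killer cell lectin-like family are either inhibitory, acting through phosphatases, or activating, acting through small adaptor proteins with signalling motifs such as those encoded by Tyrobp, Fcer1g and Hcst. Naive conventional T cells are marked instead by the lymph node homing receptor Ccr7 and by transcription factors such as Lef1. In bulk RNA, more cells of a type and more RNA per cell cannot be told apart.

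The NKT label was checked against defining genes. Cd3e, a signalling chain of the T-cell receptor complex, read 503 and 695 on NKT replicates 1 and 2 and 411 to 744 on the T-cell arrays, against 10.6 and 41.3 on the NK arrays. The NKT values lay among those of the T cells and far above NK cells. Klrb1c, which encodes NK1.1, has no probe set with that symbol alone, so that marker of the gate could not be read. Its relative Klrb1a, of the same family of NK lectin receptors, read 399.6 and 388 in NKT cells, 10 to 34.3 in T cells and 842 and 919 in NK cells. Cd4 was low, at 7.26 and 44.6, against 421 and 363 in CD4(+) T cells, and Cd8b1, the β chain of the CD8 coreceptor, read 62.3 and 46.1 against 2242 and 2086 in CD8(+) T cells. Other markers of these populations were not low. Against the mean of both T-cell populations Cd8a differed by -0.18 (adjusted p = 0.92) and Cd40lg by 0.59 (adjusted p = 0.7), without a call. Zbtb7b, a marker of CD4(+) T cells, was called higher, a call that depended on single arrays. Of 9 tested NK-cell markers, 7 were called higher in NKT than in T cells (1.89% of all tested genes were), and the summed intensity was 8090 and 6851 on the NKT arrays, 452.1 to 1913 on the T-cell arrays and 18030 and 16870 on the NK arrays. Some of these markers are high in monocytes too. With genes over 1 log2 unit higher in monocytes than in T cells left out, 4 NK-cell markers were called higher. Of B-cell markers 4 of 13 were called higher (2 without NKT replicate 2), of which 3 were class II genes; of plasma-cell, erythroid, and basophil and mast-cell markers none was called (0 of 8, 0 of 8 and 0 of 6), and of dendritic-cell markers 1 of 7 (Ccr9, lower, and not without NKT replicate 1 or CD8(+) T replicate 1).

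The 2 NKT arrays differed in myeloid genes, which bears on every list that holds such genes. The summed intensity of 15 monocyte and macrophage markers was 2807 on NKT replicate 1 and 8513 on replicate 2, against 970.3 to 2050 on the T-cell arrays, 39620 and 32960 on the NK arrays and a mean of 33030 on the monocyte arrays. Of these 15 markers, 14 were higher on replicate 2, with a median difference of 2.16 on the log2 scale. None lay below the pseudocount of 6.75 on either NKT array. All 12 neutrophil markers were higher on replicate 2 (sums of 535 and 2535, T cells 141.5 to 442.4), and 2 of them were called higher in NKT than in T cells, 6 without NKT replicate 1, 0 without NKT replicate 2 and 1 without CD4(+) T replicate 1 or CD8(+) T replicate 2. The sum over 13 B-cell markers, among them class II antigen presentation genes, was 813.9 and 1547 (T cells 390.8 to 434.1, B-cell mean 47670). Among 6731 genes above an intensity of 100 on at least 1 NKT array, 94 were higher by 1 log2 unit or more on NKT replicate 2 and 30 on replicate 1, against 64 and 69 in CD4(+) T cells and 48 and 38 in CD8(+) T cells.

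Several of the genes furthest apart between the NKT arrays are known from macrophages and neutrophils. Chil3, a secreted chitinase-like protein of alternatively activated macrophages, read 1.15 and 165. Lpl, lipoprotein lipase, read 38.1 and 641, and the neutrophil granule genes Ngp and Camp read 24.3 and 437 and 4.35 and 123. Slc40a1, the iron exporter of macrophages, read 110.3 and 1129, and Fcna, a macrophage ficolin, 72.7 and 593. The other 2 of the 8 genes higher on replicate 2 were Fhit (8.54 and 152) and Slc15a2 (33.3 and 254). The 8 genes higher on replicate 1 were Rrp9 (187 and 45.4), Pbk (117 and 32.3), Zdhhc12, Dleu2, Otud3, Tti2, Tyw1 and Myl6b, and none of them belonged to a myeloid marker list. The median difference between the arrays was 0.04 for 24 T-cell receptor genes and -0.04 for 22 NK-receptor genes, close to the line of equality in the plot of the NKT arrays against each other.

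**Figure D1:**
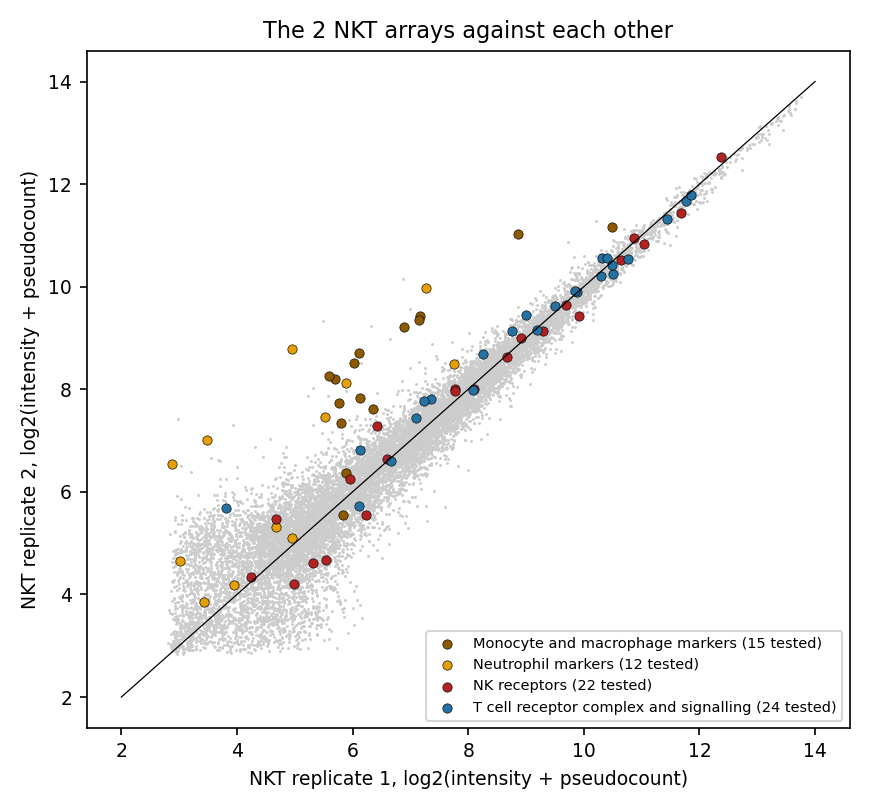
Each point is 1 of the 14044 tested genes, with log2(intensity + 6.75) on NKT replicate 1 on the x axis and on replicate 2 on the y axis; coloured points are members of 4 lists and the line marks equality. Of 15 monocyte and macrophage markers 14 lie above the line, and all 12 neutrophil markers do.

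Of 14044 tested genes, 452 (3.22%) were called between NKT and T cells, at an adjusted p below 0.05 and a difference of at least 1 on the log2 scale: 266 higher in NKT cells (1.89%) and 186 lower (1.32%). The median difference over all tested genes was 0.02. Both NKT arrays lay outside the range of the 4 T-cell arrays for 252 of the genes called higher and 160 of those called lower, and for 23.3% of all tested genes. Without NKT replicate 2 there were 124 genes called higher, 117 of them also called with both arrays, and 96 lower, 73 of them shared. Without NKT replicate 1 there were 204 higher (154 shared) and 111 lower (81 shared), and without CD8(+) T replicate 1 there were 114 lower. Of the 266 genes called higher, 39 were more than 1 log2 unit higher on NKT replicate 2 than on replicate 1 and 1 the other way, and 121 had a higher mean in monocytes than in NKT cells. In an alternative chosen after the data were seen, without the 2038 genes that were over 1 log2 unit higher in monocytes than in T cells, 109 of 12006 genes were called higher and 147 lower.

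**Figure D2:**
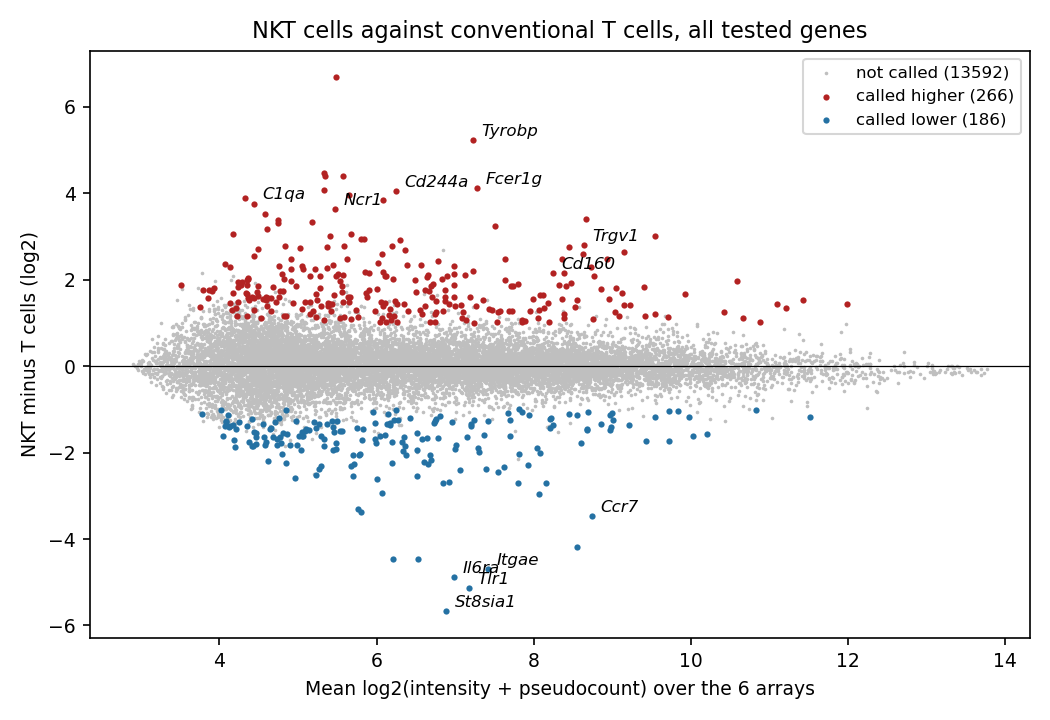
Each point is a tested gene, with the mean log2(intensity + 6.75) over the 6 arrays on the x axis and the log2 difference of NKT minus T cells on the y axis. Of 14044 genes, 266 were called higher (red) and 186 lower (blue); Tyrobp and St8sia1 lie near the extremes of each side.

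By count, NK receptors formed the list with the most genes called higher. Of 33 members, 23 have a probe set with that symbol alone, 22 were tested, 16 were called higher and 1, Klrg1, lower; their median difference was 1.88, against 0.02 over all tested genes. With each of the 6 arrays left out in turn the number called higher was 10 to 15 (10 without either NKT array), and the number called lower stayed at 1. Leaving out the monocyte-high genes, 13 were called higher. Over all tested genes 1.89% were called higher. By share and by median this list was not the first. Of 15 monocyte and macrophage markers 11 were called higher (median 2.47), and of 9 NK-cell markers 7 (median 2.595).

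Among activating receptors, Ncr1, which encodes NKp46, read 212 and 251 on the NKT arrays, 11.8 and 19.3 on the CD4(+) T arrays and 7.86 and 12.2 on the CD8(+) T arrays. Both NKT arrays were above all T-cell arrays, with a mean difference of 3.64 on the log2 scale (SE 0.43, adjusted p = 4.4e-05), a 12.4-fold difference. Klrk1, which encodes the stress ligand receptor NKG2D, read 1596 and 1469 in NKT cells, 289 and 226 in CD4(+) and 209 and 392 in CD8(+) T cells, a difference of 2.47 (SE 0.33, adjusted p = 0.00012). Klrb1a and Klrb1f, lectin receptors of the NKR-P1 family, were higher by 3.84 (adjusted p = 3.0e-06) and 3.25 (adjusted p = 2.1e-05). Klrb1f read 959.5 and 683 in NKT and 26.3 to 138 in T cells. These 4 receptors separated the NKT arrays from every T-cell array, and each stayed called whichever array was left out.

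Cd160 and Cd244a, receptors of the immunoglobulin superfamily that bind Hvem and Cd48, were also higher. Cd160 read 821 and 797 in NKT cells, 170.4 and 88.8 in CD4(+) T cells, 212 and 307 in CD8(+) T cells and 269 and 209 in NK cells, so that the NKT arrays were above the T-cell and NK arrays alike. The difference from T cells was 2.15 (SE 0.27, adjusted p = 6.1e-05). Cd244a, also known as 2B4, read 477 and 502 against 7.11 to 53.4 in T cells, a difference of 4.06 (SE 0.50, adjusted p = 5.7e-05), and 3.76 on its other probe set.

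The inhibitory receptors and the heterodimer partners that recognise class I molecules followed. Klra7, a Ly49 receptor, read 2103 and 1816 in NKT cells, 64.6 and 49.4 in CD4(+) T cells and 391 and 712 in CD8(+) T cells, a difference of 3.41 (SE 0.30, adjusted p = 1.3e-06). Klrc1, the inhibitory chain NKG2A, read 1864 and 1972 against 164 to 770.2 (difference 2.63, adjusted p = 6.4e-05), and Klre1, a lectin receptor of the same gene cluster, 3290 and 2777 against 161 to 965 (difference 3.02, adjusted p = 5.0e-05). On both CD8(+) arrays these 3 genes were above both CD4(+) arrays and below both NKT arrays. Klrd1, the CD94 partner of Klrc1, read 5310 and 5880 in NKT cells, 922 and 981 in CD4(+) and 4015 and 3917 in CD8(+) T cells; its difference of 1.52 (adjusted p = 0.035) lost its call without any 1 of the 6 arrays (adjusted p up to 0.24). Closely related Ly49 and lectin genes can share probes, so values of single members of these families are uncertain in that respect.

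The other genes called higher depended more on single arrays. Klra5 (difference 2.78) lost its call without either NKT array (adjusted p up to 0.064), Klrc3 (1.77) without NKT replicate 1 (adjusted p = 0.11) and Fcgr3 (1.98), a low-affinity IgG receptor that is high in monocytes (1312), without NKT replicate 2 (adjusted p = 0.075). Crtam (1.64) and Slamf7 (1.43) lost theirs without either NKT array, CD4(+) T replicate 2 or CD8(+) T replicate 1 (adjusted p up to 0.17 and 0.2), and Klrc2 (1.46) without any array but CD4(+) T replicate 1 (adjusted p up to 0.37). The 5 tested members with no call were Klra8 (1.51), Klrb1b (1.56), Klra2 (1.09), Klra17 (0.39) and Cd226 (0.34). Klra8, the receptor Ly49H, read 68.5 and 39.9 in NKT cells and 2941 and 3236 in NK cells. Klrg1, an inhibitory receptor of cells that have divided often, was called lower: it read 89.6 and 93 in NKT cells, 85.1 and 113 in CD8(+) T cells and 888 and 844 in CD4(+) T cells, a difference of -1.62 from the T-cell mean (adjusted p = 0.0022). It was -3.15 from CD4(+) (adjusted p = 1.3e-05) and -0.10 from CD8(+) T cells (adjusted p = 0.95).

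**Figure D3:**
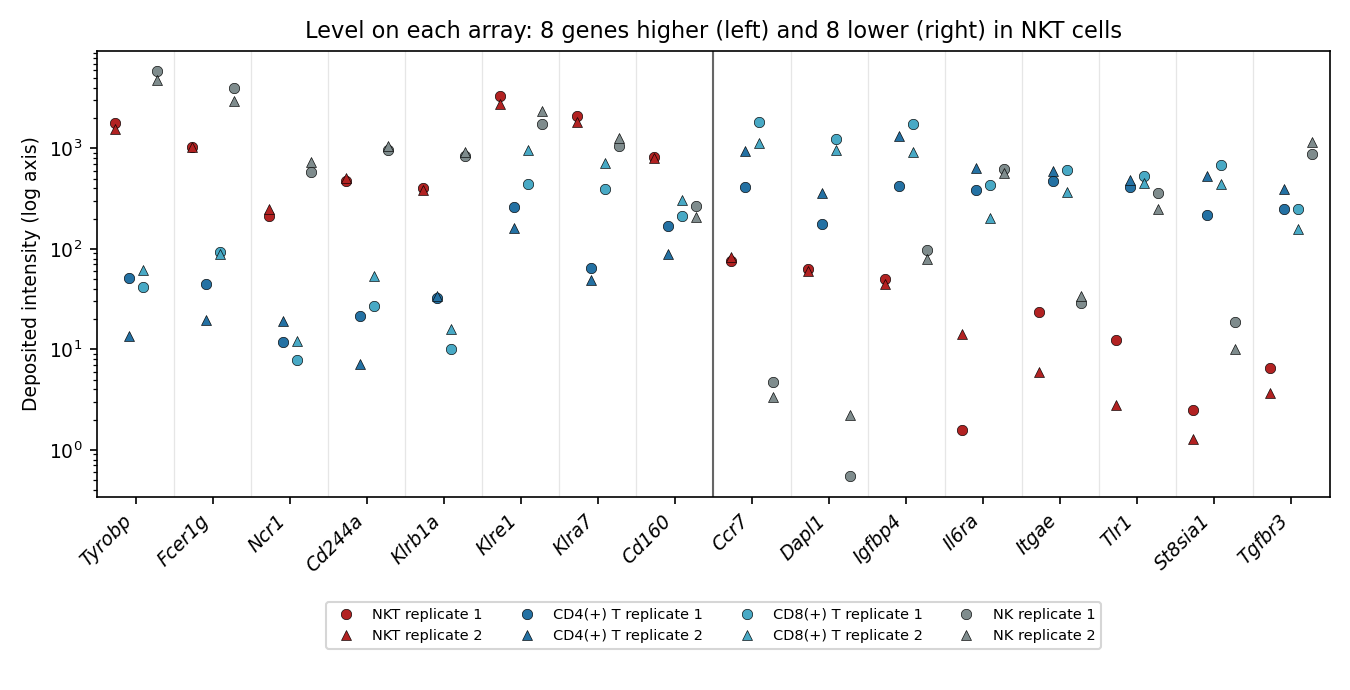
Deposited intensity (log axis) of 8 genes called higher (left of the line) and 8 called lower (right) in NKT cells, on each array of NKT, CD4(+) T, CD8(+) T and NK cells; circles are replicate 1 and triangles replicate 2. For every gene shown both NKT points lie outside the range of the 4 T-cell points. The naming rule that gave most of these genes required this separation. Macrophage and class II genes named by the same rule are not shown.

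Among the adaptors and kinases that carry signals from these receptors, 18 of 20 were tested, 6 were called higher and none lower, with a median of 0.57 (1.89% of all tested genes were called higher and 1.32% lower). Tyrobp, which encodes the adaptor DAP12, read 1779 and 1574 on the NKT arrays, 51.6 and 13.7 on the CD4(+) arrays and 41.8 and 62.1 on the CD8(+) arrays. The difference of 5.23 (SE 0.38, adjusted p = 1.3e-07) is 37.6-fold. Fcer1g, the common γ chain of Fc receptors, which also serves NKp46, read 1036 and 1023 against 19.5 to 93.3 in T cells, a difference of 4.11 (SE 0.27, adjusted p = 3.4e-08). Both adaptors are high in monocytes too (5621 and 2693), and the part of myeloid RNA in their readings was not tested. NKT replicate 2 minus replicate 1 was -0.18 for Tyrobp and -0.02 for Fcer1g. Both stayed called whichever array was left out.

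Clnk, an adaptor that binds phospholipase C in NK and mast cells, read 249.9 and 187 in NKT and 17.7 to 52.3 in T cells, a difference of 2.60 (adjusted p = 0.00052), with a monocyte mean of 2.25. Plcg2, the phospholipase itself, was higher by 1.90 (adjusted p = 0.0004) and Vav3, a guanine nucleotide exchange factor, by 1.42 (adjusted p = 0.00085). Syk, the kinase recruited by Tyrobp and Fcer1g, read 77.3 and 117 against 6.39 to 29.8; its difference of 2.08 (adjusted p = 0.017) lost its call without either NKT array, CD4(+) T replicate 1 or CD8(+) T replicate 1 (adjusted p up to 0.21). All but Clnk of these 6 belong to the monocyte-high genes, so 1 was called with those left out. Hcst, the DAP10 adaptor of NKG2D, read 1173 and 959.7 in NKT cells and 594 to 785 in T cells, above all T-cell arrays but without a call (difference 0.64, adjusted p = 0.059). The T-cell counterparts Zap70 (0.24), Cd247 (-0.53), Plcg1 (-0.73) and Lat (-1.28, adjusted p = 0.08) were not called.

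Promoter sequence from RefSeq (build GRCm38.p6), 250 bases before to 50 after the start, was held for 207 of the genes called higher and 142 of those called lower, and for 27025 genes in all. The promoters of 3 receptor and adaptor genes that were higher in NKT cells and of 1 gene that was lower are printed as examples. The genes searched one by one, printed or not, were picked by hand with their calls known. They do not stand for all genes called higher or lower. Capitals mark the letters TGTGGT, or ACCACA on the other strand, the core that RUNX transcription factors bind. Of promoters searched but not printed, those of Klrk1, Cd160 and Klre1, called higher, hold these letters. Those of Cd244a, called higher, of Hcst, not called, and of Tlr1, St8sia1 and Igfbp4, called lower, do not. The other sequences searched, TCACACCT (T-box), CTTTGAA and CTTTGAT (TCF/LEF) and CCGGAAGT (ETS), each on both strands, had no match in these windows. CTTTGAA and CTTTGAT share their first letters, and none of the others overlaps another by containing it.
Ncr1 (chr7:4337465-4337764, plus strand): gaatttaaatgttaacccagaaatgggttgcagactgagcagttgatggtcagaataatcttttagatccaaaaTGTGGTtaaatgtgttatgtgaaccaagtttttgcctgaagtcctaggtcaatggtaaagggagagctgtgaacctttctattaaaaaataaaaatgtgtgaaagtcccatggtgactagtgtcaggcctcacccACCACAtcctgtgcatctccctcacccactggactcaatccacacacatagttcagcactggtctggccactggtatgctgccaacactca
Klrb1a (chr6:128622885-128623184, minus strand): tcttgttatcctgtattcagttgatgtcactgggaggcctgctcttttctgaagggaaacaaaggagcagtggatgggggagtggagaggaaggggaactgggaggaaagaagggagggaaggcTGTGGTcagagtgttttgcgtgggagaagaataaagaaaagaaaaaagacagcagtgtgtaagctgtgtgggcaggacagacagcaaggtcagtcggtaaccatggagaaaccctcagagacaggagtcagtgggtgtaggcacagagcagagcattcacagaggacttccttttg
Fcer1g (chr1:171234300-171234599, minus strand): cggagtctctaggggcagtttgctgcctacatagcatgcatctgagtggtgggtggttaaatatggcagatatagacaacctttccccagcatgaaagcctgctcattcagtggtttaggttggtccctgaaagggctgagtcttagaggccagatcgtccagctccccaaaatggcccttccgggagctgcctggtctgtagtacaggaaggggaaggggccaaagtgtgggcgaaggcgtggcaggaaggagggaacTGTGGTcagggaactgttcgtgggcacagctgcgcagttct
Il6ra (chr3:89913147-89913446, minus strand): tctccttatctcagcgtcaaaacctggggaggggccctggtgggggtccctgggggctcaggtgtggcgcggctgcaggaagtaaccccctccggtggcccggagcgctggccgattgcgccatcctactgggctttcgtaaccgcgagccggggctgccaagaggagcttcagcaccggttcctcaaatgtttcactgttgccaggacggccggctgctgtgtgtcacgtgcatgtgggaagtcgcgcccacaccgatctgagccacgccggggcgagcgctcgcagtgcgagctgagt

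The RUNX letters were held by 36 of the 207 promoters of genes called higher (17.4%) and 13 of the 142 of genes called lower (9.15%), beside 13.2% of promoters of tested genes and 16.9% of all promoters. The T-box letters were in 2 of 207 (0.966%) and 0 of 142, beside 1.01% of tested and 1.27% of all promoters. CTTTGAA was in 6.76% and 4.93%, beside 4.02% of tested and 5.27% of all promoters, and CTTTGAT in 2.9% and 2.82%, beside 2.58% and 3.72%. The ETS letters CCGGAAGT were in 4 of 207 (1.93%) and 0 of 142, beside 7.39% of tested and 4% of all promoters. The share with the RUNX letters among genes called higher was above that of tested genes and near that of all promoters, and among genes called lower it was below both. These differences were not tested. A match is only a run of letters in this window, and no match says only that they are not there.

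Cytotoxic granule and death ligand genes were higher in part: of 21 tested, 6 were called higher and 1 lower, with a median of 0.42 (1.89% and 1.32% of all tested genes were). The number called higher was 1 without NKT replicate 1, 3 without NKT replicate 2, CD4(+) T replicate 2 or CD8(+) T replicate 1, and 5 without either of the others. Ctsw, a cathepsin of cytotoxic cells, read 4278 and 4501 in NKT cells, 1149 and 920.2 in CD4(+) T cells and 2791 and 3041 in CD8(+) T cells, a difference of 1.34 (SE 0.18, adjusted p = 0.00015), and it stayed called whichever array was left out. Fasl, the death ligand, read 1243 and 896 against 209 to 388; its difference of 1.79 (adjusted p = 0.0014) missed the threshold without NKT replicate 1 (adjusted p = 0.054). Serpinb9, an inhibitor of granzyme B, read 772 and 422 against 154 to 227 (difference 1.65) and lost its call without NKT replicate 1 (adjusted p = 0.22). Nkg7 (1.43) lost its call without any 1 of the 6 arrays (adjusted p up to 0.27), and Gzmm (1.20) and Serpinb6b (1.27) without either NKT array, CD4(+) T replicate 2 or CD8(+) T replicate 1 (adjusted p up to 0.2 and 0.22).

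Granzymes A and B and perforin were not called higher. Gzma, granzyme A, read 214 and 134 in NKT cells, 107 to 204 in T cells and 6563 and 6297 in NK cells; its difference from T cells was 0.33 (adjusted p = 0.73) and from NK cells -5.19 (adjusted p = 4.3e-08). Prf1, perforin, read 343 and 410.2 in NKT cells, 421 and 557 in CD8(+) T cells, 93.4 and 77.3 in CD4(+) T cells and 690.4 and 889.7 in NK cells. Gzmb, granzyme B, read 295 and 174 against 47.9 to 138 in T cells (difference 1.24, adjusted p = 0.14); it was called with the 6 arrays fitted alone (adjusted p = 0.036) or the pseudocount at the median of all values (1.11, adjusted p = 0.028). Gzmk, granzyme K, was called lower, at 22.7 and 34.9 against 331 and 335 in CD4(+) and 90.3 and 222 in CD8(+) T cells, a difference of -2.68 (SE 0.43, adjusted p = 0.00079), and all T-cell arrays were above both NKT arrays.

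Taken against CD4(+) T cells alone, 2 of 21 tested transcription factors of innate and effector lymphocytes were called higher and 3 lower (median 0.15). Against CD8(+) T cells alone 8 were called higher and none lower (median 1.065). Against the mean of both T-cell populations 6 were called higher and none lower (median 0.66), beside 1.89% and 1.32% of all tested genes. Without NKT replicate 2 there was 1, without CD4(+) T replicate 2 there were 2, without NKT replicate 1 or CD8(+) T replicate 1 there were 3, and with the monocyte-high genes left out 2. Eomes, a T-box factor of NK and memory CD8 T cells, read 1135 and 649.6 in NKT cells, 89.5 and 88 in CD4(+) T cells and 485 and 616 in CD8(+) T cells. Its difference of 1.91 (SE 0.31, adjusted p = 0.00088) came with an adjusted p of 0.052 without NKT replicate 1. Tbx21, the T-box factor T-bet, read 1088 and 1360 against 251 to 547: both NKT arrays were above all T-cell arrays, but the difference of 1.69 was not called (adjusted p = 0.069), though it was with the 6 arrays fitted alone (adjusted p = 0.0012) or the pseudocount at the median (1.64, adjusted p = 0.0017). Zbtb16, which encodes PLZF, the factor that directs invariant NKT cells, read 121 and 138 in NKT cells, 128 and 104 in CD4(+) T cells, 18.8 and 20.9 in CD8(+) T cells and 139 and 206 in NK cells. It was called higher against CD8(+) T cells (2.35, adjusted p = 0.006) and not against CD4(+) T cells (0.15, adjusted p = 0.92), and CD8(+) and CD4(+) T cells differed by -2.20 (adjusted p = 0.0094).

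Hopx, a homeodomain protein of effector and memory lymphocytes, was higher by 1.03 (adjusted p = 0.0032) and Bhlhe40, a cytokine-licensing factor, by 1.75 (adjusted p = 0.0047). Hopx read 3022 and 3063 against 1237 to 1700. Hopx lost its call without NKT replicate 2, CD4(+) T replicate 2 or CD8(+) T replicate 1, where the difference was as low as 0.91 or the adjusted p as high as 0.056, and Bhlhe40 without NKT replicate 2 (adjusted p = 0.15). Irf8 (1.52) and Zbtb7b (1.08) lost theirs without either NKT array, CD4(+) T replicate 2 or CD8(+) T replicate 1 (adjusted p up to 0.22 and 0.25), and Zeb2 (1.60) without NKT replicate 2, CD4(+) T replicate 2 or either CD8(+) array (adjusted p up to 0.62). Zeb2 read 21.5 and 83.4 in NKT cells and 596 in monocytes. The remaining factors, among them Gata3 (0.12), Runx3 (0.56), Id2 (0.87) and Nfil3 (1.43), were not called.

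Cytokine genes were higher in 5 of 19 tested cases and lower in none (median 0.75; 2 to 5 higher with an array left out, 2 without NKT replicate 2). These counts are against the mean of both T-cell populations, where 1.89% of all tested genes were called higher and 1.32% lower. Against CD4(+) T cells alone 3 cytokine genes were called higher and 2 lower (median 0.40). Against CD8(+) T cells alone 7 were called higher and none lower (median 0.85). Ccl5, a chemokine stored by memory and cytotoxic cells, read 8523 and 7395 in NKT cells, 2116 and 1459 in CD4(+) T cells and 4308 and 5439 in CD8(+) T cells, a difference of 1.44 (SE 0.25, adjusted p = 0.0013). Csf2, which encodes GM-CSF, read 124 and 94.7 in NKT cells, 3.32 to 21.5 in T cells and 6.74 and 7.81 in NK cells, so that NKT cells were above both, by 2.74 for T cells (SE 0.34, adjusted p = 5.4e-05) and 3.04 for NK cells (adjusted p = 1.3e-05). Xcl1, lymphotactin, read 1203 and 1074 against 194 to 365 (difference 2.09) and lost its call without either NKT array (adjusted p up to 0.066). Tnfsf14, the ligand LIGHT (1.59), lost it without NKT replicate 2 (adjusted p = 0.12), and Il2 (1.43), at 54.3 and 104 against 15.9 to 35.1, without any array but NKT replicate 1 (adjusted p up to 0.39). The signature cytokines of NKT cells were not called: Ifng read 160.4 and 262 against 16.2 to 168 (difference 1.68, adjusted p = 0.11; 0.0068 with the 6 arrays fitted alone and 0.021 with the pseudocount at the median, where it was called) and Il4 27.3 and 22.7 against 1.44 to 45.5 (0.92, adjusted p = 0.27).

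Cytokine receptors were called higher in 5 and lower in 2 of 23 cases (median 0.12), with 1 higher without NKT replicate 2, 2 without NKT replicate 1 and 3 without CD4(+) T replicate 2 or CD8(+) T replicate 1. The shares over all tested genes were 1.89% higher and 1.32% lower. Il18rap, the signalling chain of the IL-18 receptor, read 1144 and 1274 in NKT cells and 277 to 498 in T cells, a difference of 1.80 (SE 0.24, adjusted p = 0.00011). Its partner Il18r1 was higher by 1.25 (adjusted p = 0.011) and Il2rb, the chain shared by the IL-2 and IL-15 receptors, by 1.55 (adjusted p = 0.0095). Il2rb read 1032 and 985 against 235 to 452. Without either NKT array the adjusted p rose to as much as 0.17 for Il18r1, which also lost its call without CD4(+) T replicate 2, and 0.1 for Il2rb. Il12rb2 (1.47) lost its call without any 1 of the 6 arrays (adjusted p up to 0.24) and Csf2rb (1.11) without NKT replicate 2, CD4(+) T replicate 1 or CD8(+) T replicate 1 (adjusted p up to 0.38).

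Tgfbr3, the betaglycan co-receptor for TGF-β, was below the pseudocount in NKT cells, at 6.53 and 3.69, against 251 and 393 in CD4(+), 252 and 159.6 in CD8(+) T cells and 872 and 1153 in NK cells. The difference from T cells was -4.45 (SE 0.46, adjusted p = 9.0e-06). Tgfbr1 (0.31) and Tgfbr2 (-0.08), the signalling receptors, were not called. Ifngr2, the second chain of the interferon γ receptor, read 11.4 and 10.8 against 45.8 to 83.8 in T cells and 118 and 102 in NK cells, a difference from T cells of -1.94 (adjusted p = 0.00032). Both genes were lower in NKT cells than in all T-cell and NK arrays.

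Genes of naive T cells were in part called lower in NKT cells, beside 1.32% of all tested genes. Of 21 tested, 8 were called lower and none higher, with a median of -1.05, and 4 to 9 were called lower with an array left out (4 without NKT replicate 1 or CD4(+) T replicate 2, 5 without NKT replicate 2). Ccr7, the receptor that guides T cells to lymph nodes, read 76.2 and 82.5 in NKT cells, 412 and 939 in CD4(+) T cells and 1824 and 1125 in CD8(+) T cells. The NKT arrays were below all T-cell arrays and above the NK arrays (4.75 and 3.35), and the difference from T cells was -3.47 (SE 0.38, adjusted p = 1.9e-05), 11.1-fold lower. Igfbp4, an insulin-like growth factor binding protein of naive T cells, read 50.3 and 45.1 against 423 to 1768 in T cells, a difference of -4.18 (SE 0.33, adjusted p = 3.6e-07); its 4 other probe sets above the filter gave -1.505 to -3.93. Dapl1 read 63.1 and 60.1 against 176 to 1229, a difference of -2.96 (adjusted p = 0.0001).

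Il6ra, the ligand-binding chain of the IL-6 receptor, was the naive-list gene with the largest difference. It read 1.56 and 14.3 on the NKT arrays, 384 and 637 and 435 and 204 on the CD4(+) and CD8(+) T arrays and 618 and 574 on the NK arrays, so that NKT cells lay below both lineages, with a difference of -4.89 from T cells (SE 0.40, adjusted p = 4.6e-07). Another probe set of Il6ra, which passed the filter, gave -0.59. Its promoter is the last of those printed. Il6st, the signalling partner, was not called (-0.59, adjusted p = 0.6). Ccr7, Igfbp4, Dapl1 and Il6ra stayed called whichever array was left out. Lef1 (-1.26) and S1pr1 (-1.11) lost their call without either NKT array, CD4(+) T replicate 2 or CD8(+) T replicate 1 (adjusted p up to 0.15 and 0.17). Rflnb (-1.05) lost it without either NKT array (adjusted p up to 0.093) or CD4(+) T replicate 2 (difference just under the threshold in size), and Actn1 (-1.18) without NKT replicate 1 (adjusted p = 0.072) or CD4(+) T replicate 2 (difference -0.98). S1pr1, which governs exit from lymph nodes, read 189.5 and 217 against 389 to 529. Il7r, the IL-7 receptor, read 3304 and 2910 against 5031 to 7239, below every T-cell array but with no call (-0.97, adjusted p = 0.14), and Cd27 (0.04), Bcl2 (0.29) and Satb1 (-0.44) were not called either.

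**Figure D4:**
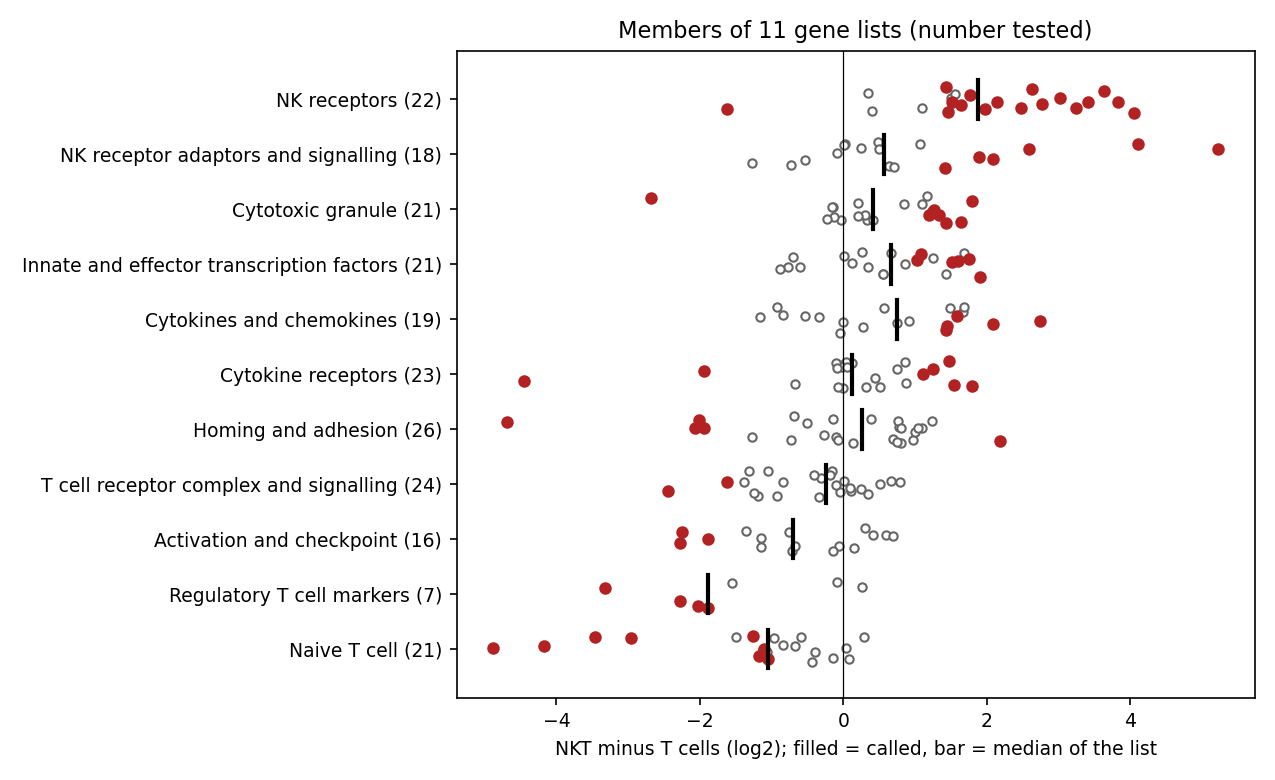
Log2 difference of NKT minus T cells (x axis) for the tested members of 11 gene lists (rows); filled points are called, open points are not, and the bar is the median of the list; the height of a point within its row carries no meaning. NK receptors have a median of 1.88 and naive T-cell genes of -1.05.

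Outside the naive list, the genes furthest below T cells had separate roles. St8sia1, the sialyltransferase that makes the ganglioside GD3, read 2.5 and 1.29 in NKT cells, 218 and 526 in CD4(+) T cells and 678 and 447 in CD8(+) T cells, a difference of -5.67 (SE 0.50, adjusted p = 1.3e-06). Tlr1, a partner of Tlr2 in sensing lipoproteins, read 12.3 and 2.82 against 410.2 to 532 in T cells and 363 and 247 in NK cells (difference from T cells -5.13, adjusted p = 5.8e-09). Mtss1, a membrane-curving regulator of the actin cytoskeleton, read 1.63 and 3.71 against 140.5 to 269.5 (difference -4.47, adjusted p = 2.7e-09). These values are those of the probe set with the highest mean: 5 other Mtss1 probe sets above the filter gave -0.65 to -3.33, and another of St8sia1 gave -2.31. Tmie read 4.17 and 5.91 against 56 to 149 (difference -3.37, adjusted p = 0.00013), while its other probe sets, below the filter, gave 0.11 and -0.49. All of these NKT readings except that of Tlr1 on replicate 1 were below the pseudocount of 6.75, which then sets the size of the differences. Each gene stayed called whichever array was left out. Actn2 (-2.94) read 24.3 and 2.85 on the NKT arrays and had an adjusted p of 0.051 without NKT replicate 2.

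Most genes of the T-cell receptor complex were not called, which holds for most tested genes (3.22% of them were called, 1.32% lower). Of 24 tested genes of the complex and its proximal signalling, none was called higher and 2 lower, Cd5 and Cd8b1 (1 without NKT replicate 1), with a median of -0.25. With the pseudocount at the median, the 6 arrays fitted alone or the mean of all probe sets, 6 were called lower, and with the pseudocount at the 5th percentile 1. Cd3d (-0.04), Cd3e (0.11), Cd3g (-0.31) and Thy1 (0.24) were not called. Cd5, a negative regulator of receptor signalling, read 428 and 554 in NKT cells, 2425 and 1867 in CD4(+) T cells and 959 and 1180 in CD8(+) T cells, a difference of -1.61 (adjusted p = 0.0036), which missed the threshold without NKT replicate 1 (adjusted p = 0.084). Cd8b1 (-2.44) missed it without NKT replicate 2 (adjusted p = 0.086). Themis (-1.38), Bcl11b (-1.19) and Cd6 (-1.31) had no call but were called lower with the 6 arrays fitted alone or the pseudocount at the median, and so was Lat.

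The probe sets of 2 T-cell receptor γ variable segments, named after their values were seen, were high in NKT cells. Trgv1 read 1510 and 1408 on the NKT arrays, 316 and 137 on the CD4(+) arrays, 128 and 298 on the CD8(+) arrays and 249 and 229 on the NK arrays, a difference from T cells of 2.81 (SE 0.42, adjusted p = 0.00042). Trgv4 read 1220 and 1399 against 129.6 to 287 in T cells and 51.2 and 55.7 in NK cells, a difference of 2.59 (SE 0.34, adjusted p = 0.00011). The NKT arrays were above all others of the 4 populations, and both calls held whichever array was left out. Such segments resemble each other, so the probe sets may read more than the named one. Of 12 markers of γδ T cells, 8 have no probe set with that symbol alone, and none of the 4 tested (Sox13, Cd163l1, Il17a, Blk) was called. Of α and β variable segments, also named after their values were seen, Trav9d-3 (2197 and 2226 against 2642 to 3137) and Trbv1 (4874 and 4884 against 5504 to 6352) were not called.

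Homing and adhesion genes were called higher in 1 and lower in 4 of 26 cases (median 0.26; 2 higher without NKT replicate 1, CD4(+) T replicate 1 or CD8(+) T replicate 2, and 2 lower without NKT replicate 1). As 1.89% of all tested genes were called higher and 1.32% lower, 1 higher call does not set the list apart. Itgae, the αE integrin that retains T cells in epithelia, read 23.4 and 5.95 in NKT cells, 472 and 591 in CD4(+) and 603 and 368 in CD8(+) T cells, a difference of -4.69 (SE 0.45, adjusted p = 3.5e-06), near the NK level of 28.7 and 34; its other probe set gave -1.89. Itgax, the integrin CD11c, was higher, at 202 and 160.4 against 17.4 to 58.2 (2.19, adjusted p = 5.0e-05), with 1145 and 876 in NK cells. Both stayed called whichever array was left out. Ccr9 (-2.02), Ccr6 (-2.06) and Cxcr5 (-1.95), receptors for gut, mucosal and follicular homing, were lower, but Ccr9 lost its call without NKT replicate 1 or CD8(+) T replicate 1 and with its more specific probe set (-0.70, adjusted p = 0.55), Ccr6 without NKT replicate 1 and Cxcr5 without NKT replicate 2 (adjusted p up to 0.3, 0.07 and 0.081). The memory markers Cd44 (0.97, adjusted p = 0.0046) and Itgal (0.80, adjusted p = 0.0088) passed the p threshold but not the fold, and without NKT replicate 1, CD4(+) T replicate 1 or CD8(+) T replicate 2 Cd44 reached up to 1.12 and was called. Cxcr6, the liver-homing receptor of NKT cells, read 877 and 1336 against 348 to 1081 (0.80, adjusted p = 0.31).

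Of 7 tested regulatory T-cell markers 4 were called lower in NKT cells (2 without NKT replicate 1), and of 16 activation and checkpoint genes 3 (1 without NKT replicate 2, 5 with the pseudocount at the median or the 6 arrays fitted alone), with medians of -1.88 and -0.70. Against CD4(+) T cells alone 5 and 7 were called lower, and against CD8(+) T cells 1 and 0. The shares of all tested genes called lower were 1.32% against the T-cell mean, 1.94% against CD4(+) and 0.876% against CD8(+) T cells. Foxp3, the defining factor of regulatory T cells, read 14.4 and 15.7 in NKT cells and 18.1 and 14.9 in CD8(+) T cells but 345 and 316 in CD4(+) T cells, so that its difference was -3.95 from CD4(+) (adjusted p = 9.7e-06) and -0.09 from CD8(+) T cells (adjusted p = 0.96). Tnfrsf4, the costimulator OX40, read 88.8 and 122, 154 and 125 and 1217 and 1082 in the same order, and Ctla4 33.1 and 24.4, 49.6 and 2.13 and 1095 and 1512. Gpr83 was lower than in both populations (1.99 and 9.01 against 50.1 to 225, difference -3.32, adjusted p = 0.00015; -3.35 on its other probe set). Ctla4 lost its call against the T-cell mean without either NKT array, CD4(+) T replicate 2 or CD8(+) T replicate 1 (adjusted p up to 0.2), Nrp1 (-1.88) without NKT replicate 1 (adjusted p = 0.23) and Cd200 (-2.24) without NKT replicate 2 (adjusted p = 0.052).

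Of 12 genes of the SLAM family and the CD1d axis, 1 was called higher and 2 lower (0 without NKT replicate 1), with a median of -0.01. Arsb, a lysosomal sulfatase, read 863 and 944 against 154 to 264 (2.17, adjusted p = 6.5e-05) and stayed called whichever array was left out. Cd1d1, the molecule that presents lipids to NKT cells, read 285 and 337 against 649 to 998 (-1.35, adjusted p = 0.0047), and Slamf1 59.6 and 87.4 against 627 and 445 in CD4(+) and 59.7 and 78.9 in CD8(+) T cells (-1.35, adjusted p = 0.01). Both lost their call without NKT replicate 1 (adjusted p = 0.083 and 0.18). Slamf6 (-0.60), Ly9 (0.33) and Cd84 (0.17) were not called. Among all tested genes 1.89% were called higher and 1.32% lower, so 1 higher call does not set this list apart.

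Taken against each T-cell population alone, 554 genes (3.94%) were called against CD4(+) T cells, 281 higher (2%) and 273 lower (1.94%), and 425 (3.03%) against CD8(+) T cells, 302 higher (2.15%) and 123 lower (0.876%). Without CD4(+) T replicate 2 the first count was 340, and the count against CD8(+) T cells was 186 without NKT replicate 2 and 177 without CD8(+) T replicate 1. Centring each array on its median gave 246 higher and 159 lower against CD8(+) T cells. The comparisons share the NKT arrays, and CD4(+) and CD8(+) T cells themselves differed in 444 genes (3.16%). By count, the NK-receptor list was the one with most higher calls on both sides (16 of 22 against CD4(+) and 14 of 22 against CD8(+) T cells). Of 15 monocyte and macrophage markers 10 were called higher on each side. Klrk1 differed by 2.55 from CD4(+) and 2.39 from CD8(+) T cells, Ncr1 by 3.44 and 3.84, and Itgae by -4.77 and -4.61. For these genes the difference between CD4(+) and CD8(+) arrays was not called (adjusted p = 0.9, 0.79 and 0.93). By contrast Eomes stood 3.18 above CD4(+) and 0.65 above CD8(+) T cells (difference between the T-cell populations 2.54, adjusted p = 0.00029), and Ccl5 2.17 and 0.71 (adjusted p of that difference 0.0052).

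**Figure D5:**
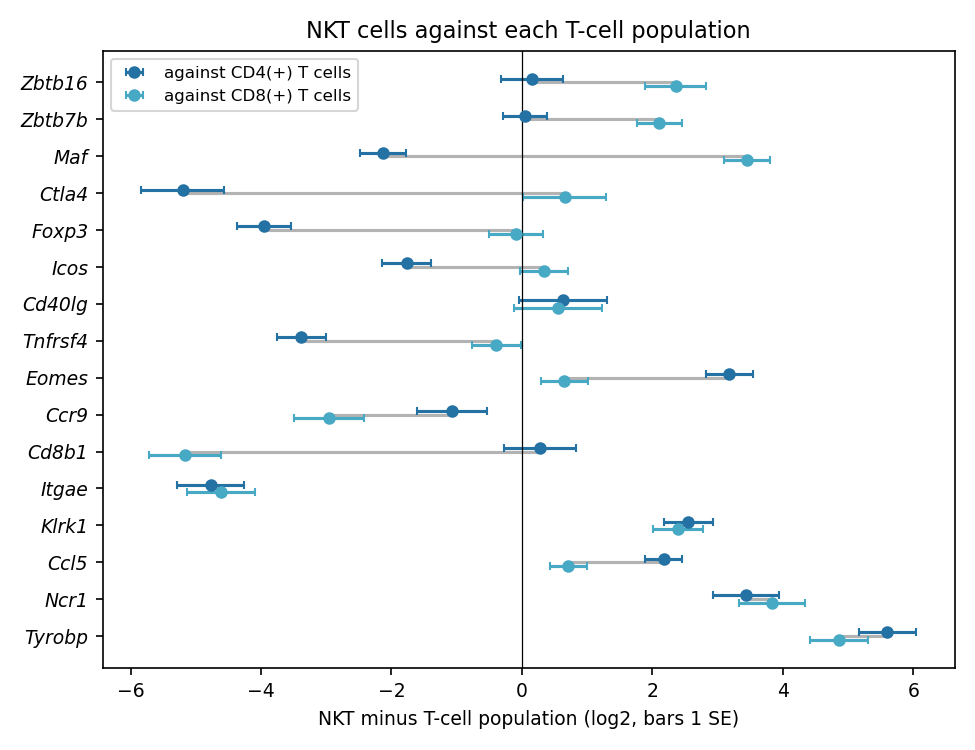
Log2 difference of NKT cells from CD4(+) T cells (dark) and from CD8(+) T cells (light), with bars of 1 SE, for 16 genes chosen after their values were seen to show both like and unlike cases. Ncr1, Tyrobp, Klrk1 and Itgae stand at similar places in both comparisons, whereas Maf lies at -2.13 and 3.45.

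Against NK cells, 1562 genes (11.1%) were called, 617 higher (4.39%) and 945 lower (6.73%) in NKT cells. The NK arrays carried high macrophage readings of their own, with Csf1r, the receptor of macrophage growth, at 7004 and 5725 against 135 and 647 in NKT cells; its part in this comparison was not tested, and without the monocyte-high genes 822 were called. Side by side, Klra7 differed by 3.41 from T cells and 0.75 from NK cells (adjusted p = 0.17), Klre1 3.02 and 0.57 (adjusted p = 0.41), and Klrk1 2.47 and 0.92 (adjusted p = 0.11). The NKT mean of these receptors was above that of the NK arrays, without a call. Tyrobp differed by 5.23 from T cells and -1.67 from NK cells (adjusted p = 0.012), Fcer1g 4.11 and -1.72 (adjusted p = 0.00062), and Ncr1 3.64 and -1.48 (adjusted p = 0.051), so the NKT means of these 3 lay between those of T and NK cells. Examples chosen after their values were seen of genes high in NK and low in NKT cells were S1pr5 (25.4 and 20.5 against 1465 and 1514), Cx3cr1 (26.8 and 47.4 against 1860 and 2188) and Zeb2 (21.5 and 83.4 against 1749 and 1517).

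Macrophage genes made up much of the upper end of the list. Of the 12 genes with the largest differences under the naming rule, 8 are genes of macrophages or of antigen presentation: Lyz1 (6.68), H2-Aa (4.48), Apoe (4.40), Slc40a1 (4.40), Lyz2 (4.08), C1qb (3.97), C1qc (3.88) and C1qa (3.76). C1qa, a subunit of the first complement component, read 45 and 287 on the NKT arrays, 1.29 to 4.74 on the T-cell arrays and 415 and 292 on the NK arrays. Apoe, apolipoprotein E, read 120.5 and 750.3 against 2.26 to 16, and H2-Aa, a class II chain, 204 and 480.4 against 1.06 to 17.5. All of these were higher on replicate 2. That both NKT arrays lay above the T-cell arrays was required by the naming rule. Of 15 monocyte and macrophage markers 11 were called higher (median 2.47); 6 were called without NKT replicate 2 (median 1.25) and 13 without NKT replicate 1 (median 3.72). Lyz2 (adjusted p = 0.06 without NKT replicate 2), Cd68 (0.15), Mrc1 (0.22) and Adgre1 (0.17) were among those that lost their call without it. Lyz1 was read by a probe set whose name marks possible matches to other genes, such as Lyz2; a second one of that kind gave 4.72, and the probe set without that mark 0.45 (adjusted p = 0.73). The other probe sets of H2-Aa gave 2.53, 0.74 and 1.42, that of Slc40a1 2.08 and those of C1qb 3.41 and 4.53.

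Across all 10 populations Ncr1 had 2 high populations, NK cells at 661.1 ± 107.9 (SD, n = 2) and NKT cells at 231.8 ± 27.33 (SD, n = 2), and the other 8 had means of 4.76 to 20.5, in which the ranges of mean ± SD of all neighbours in order overlapped except those of B cells (14.6) and CD8(+) T cells (10). Cd160 was highest in NKT cells, at 808.9 ± 17.28 (SD, n = 2), followed by CD8(+) T cells at 259.2 ± 67.45 and NK cells at 238.8 ± 42.24, whose ranges overlapped, and by CD4(+) T cells at 129.6 ± 57.72. Tyrobp was read in the order neutrophils (9174 ± 1423), monocytes (5621 ± 489.4), NK cells (5372 ± 738.2), the last of which overlapped monocytes, and NKT cells (1677 ± 144.8), with CD8(+) and CD4(+) T cells at 51.97 ± 14.37 and 32.68 ± 26.82. Ccr7 was highest in CD8(+) T cells (1475 ± 494.2), with B cells (711.9 ± 7.103) and CD4(+) T cells (675.5 ± 372.3), next; the ranges of mean ± SD of CD8(+) and CD4(+) T cells overlapped, as did those of B cells and CD4(+) T cells. They were followed by NKT cells (79.35 ± 4.384). The genes whose population means followed Ncr1 most closely over the 10 populations, by Pearson's r on the log2 scale as a description over means that share their platform and scaling, were Klrb1a (0.968), Klrc3 (0.947), Prss30 (0.933), Klra8 (0.899), Cadm1 (0.885), Adgrv1, Itgax and C1qa (0.869 each).

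Lists of cell state had at most 1 call each. Of all tested genes 3.22% were called (1.89% higher and 1.32% lower), so these counts do not set the lists apart. Of 20 immediate early genes 1 was called higher (Fosl2, 1.51, lost without any 1 of the 6 arrays, adjusted p up to 0.22), and of 19 interferon response genes 1 was called lower (Oas2, -1.43, adjusted p = 0.093 without NKT replicate 1). Of 22 mitosis genes 1 was called higher (3 without CD4(+) T replicate 1, 2 without CD8(+) T replicate 1), Nusap1, a spindle protein, at 115 and 84.4 against 13.7 to 50.3 (1.59, adjusted p = 0.0014; 0.86, adjusted p = 0.21, over all its probe sets), and of 26 DNA replication genes 1 (2 without CD8(+) T replicate 2), Tk1 (1.15), which lost its call without either NKT array, CD4(+) T replicate 2 or CD8(+) T replicate 1 (adjusted p up to 0.29). None of 12 BCL2 family genes was called (1 higher without CD4(+) T replicate 2, 1 lower without CD8(+) T replicate 2), and none of 23 ribosome biogenesis genes, with any array left out or none. The medians were -0.21 for immediate early, -0.17 for interferon response, 0.47 for mitosis, 0.30 for DNA replication, 0.17 for BCL2 family and 0.12 for ribosome biogenesis genes, against 0.02 over all genes.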

How the data were processed

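RNA of 20 samples in 10 sorted populations was read on Mouse Genome 430 2.0 arrays. The deposited values are linear intensities, which from the values are scaled on each array to a mean of 100 after trimming 2% at each end. No label or file header names the summarising software, the background correction or a genome build. Of 45101 probe sets, 64 are controls, 34945 have 1 gene symbol in the platform annotation, 932 several and 9160 none, and the probe set with the highest mean stood for each of 18193 genes.

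The deposited intensities were turned into log2(intensity + 6.75), the pseudocount being the 25th percentile of all values; a log2 difference on this scale understates that of dim genes. The 14044 genes whose highest population mean exceeded the median of all values (4.89) were tested with limma 3.58.1 in R 4.3.3 over all 20 arrays, with a mean-variance trend and 10 residual degrees of freedom. A gene was called at a Benjamini-Hochberg adjusted p below 0.05 and an absolute difference of at least 1. The procedure was run on simulated data with independent normal noise of the fitted spread. That noise met the assumptions of the model and held no myeloid difference between the NKT arrays. It cannot show how the calls behave under such a difference. With 2 arrays in each population, their number limits the precision.

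The members and the 27 gene lists (470 members, 422 with a probe set, 417 tested) were chosen with earlier results of these data known. Named genes are list members, the 12 called genes furthest from T cells each way whose brighter mean exceeds 100 and whose NKT arrays lie outside the T-cell range, the 8 furthest apart between the NKT arrays each way, those called in opposite directions against CD4(+) and CD8(+) T cells, and the 8 closest to Ncr1. Genes chosen after their values were seen are marked as such. The alternatives changed the pseudocount, filter, normalization, probe set rule, arrays fitted, variance model, threshold and replicate block, and left out each array in turn.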

Additional observations from a re-analysis of the deposited data

Results flagged for a closer look

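The 5 genes called in opposite directions against CD4(+) and CD8(+) T cells, whose 2 effects differ by the CD8(+) minus CD4(+) difference tested in the same limma fit, had NKT levels between those of both T-cell populations. Maf, a transcription factor of helper T cells, read 355 and 544 on the NKT arrays, 2405 and 1572 on the CD4(+) arrays and 29.1 and 39.6 on the CD8(+) arrays. NKT cells were -2.13 from CD4(+) (adjusted p = 0.00077) and 3.45 from CD8(+) T cells (adjusted p = 8.4e-06), and the difference between these effects was -5.58 (adjusted p = 2.2e-08). Casp1, the inflammasome protease, read 77.7 and 66.2, 468 and 279.9 and 20.9 and 31 in that order, with effects of -2.23 and 1.28 that differed by -3.51 (adjusted p = 7.3e-08). Stx11, a syntaxin needed for release of lytic granules, read 194 and 161, 772 and 665 and 44.3 and 72.6, with effects of -1.98 and 1.53 that differed by -3.51 (adjusted p = 7.3e-08). Tnfsf11, the ligand RANKL, read 41.7 and 89.6, 288 and 179 and 14.1 and 15.2, with effects of -1.78 and 1.68 that differed by -3.45 (adjusted p = 4.5e-05). Zfp296, a zinc finger protein, ran the other way, at 91.1 and 101, 10.8 and 14.5 and 228 and 211, with effects of 2.41 and -1.14 that differed by 3.55 (adjusted p = 4.7e-07). For these genes the mean of both T-cell populations describes neither. In each case every NKT reading lay between the readings of the CD4(+) arrays and those of the CD8(+) arrays.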

How the results depend on the processing

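No named gene changed direction while called. Of 440 named genes 104 were called, and 35 of these stayed called under each alternative that gave them a value: 21 had a value under all, 13 belonged to the monocyte-high genes and so had none without those, and Tmie had none with the more specific probe sets. The 69 others lost their call under at least 1 alternative. The count of 452 genes between NKT and T cells fell to 60 (44 higher, 16 lower) when the fold itself was tested with limma's treat, which by construction asks for more than a difference of 1; against CD4(+) T cells 98, against CD8(+) T cells 45 and against NK cells 461 were then called. Leaving out monocyte-high genes, an alternative chosen after seeing the data, gave 256 (109 higher), and 367, 212 and 822 against CD4(+), CD8(+) and NK cells. With each array left out the count was 220 to 438 (124 to 273 higher, 96 to 171 lower), and 340 to 536, 177 to 413 and 1142 to 1554 against CD4(+), CD8(+) and NK cells; in such fits a lone array is assumed to vary like the other groups, and fewer arrays enter. With the replicate number as a block the count was 442 (258 higher, 184 lower). Arrays of the same number share only a number: the correlation of their differences between replicates was 0.04 for NKT and CD4(+), -0.02 for NKT and CD8(+) and -0.09 for CD4(+) and CD8(+) T cells. Quantile normalization and centring moved the median of all genes by -0.01 and -0.04. The cause of the other changes was not tested. Having 2 arrays a population, and NKT readings below the pseudocount, limit what can be said of the size of differences of dim genes. With the pseudocount at the 5th percentile cytotoxic genes called higher numbered 3, cytokines 3 and cytokine receptors 2; with the mean of all probe sets 3 transcription factors were called higher. With treat NK receptors called higher numbered 9, adaptors 2, cytotoxic genes and transcription factors 0 each, monocyte and macrophage markers 6, and naive genes called lower 4. Leaving out monocyte-high genes removed Itgax, Arsb and Ifngr2, among others, from the test.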
